A study of Mus musculus with 27 samples.

Results

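Mouse embryonic stem cells collected at the end of a 30 min exposure to hydrogen peroxide (H2O2) were compared with cells taken before it. The samples are the 3 libraries labelled 0.5 h and the 3 libraries labelled untreated at 0 h, 6 of the 27 libraries in the series, all chosen by their labels. All are wild-type cells of E14Tg2a, an established line, kept on gelatin in a medium with serum, LIF (leukemia inhibitory factor) and the 2i inhibitor pair, so every group shares these conditions. According to the treatment protocol the peroxide was used at 500 µM, a unit for which the design text has mM. The 0.5 h cells were collected directly after the 30 min, before the later change to spent medium. Untreated cells at 0 h carry no exposure and no mock handling is named for them. The question is which RNAs differed at this earliest time of a longer time course. Replicates are labelled as biological replicates of 3 independent time courses. Markers of embryonic stem cells were present throughout: all 10 of 10, among them Pou5f1, Nanog and Esrrb, stood above 1 FPKM in all 6 libraries.

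Hydrogen peroxide is a small oxidant that crosses membranes and oxidizes cysteine residues. Cells answer it in steps: peroxiredoxins and thioredoxins react with it, stress kinases act on immediate early genes, and the factors NRF2, p53 and HSF1 then raise detoxifying, checkpoint and chaperone mRNAs. Mitochondria, a main site of peroxide formation, carry a circular genome that is transcribed from both strands as long precursors. Between the genes for respiratory chain subunits lie those for transfer RNAs (tRNAs), and cutting out the tRNAs releases the mRNAs on either side.

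Values are FPKM, fragments scaled by transcript length and by the number of fragments in the library, as deposited. Tests used limma on log2(FPKM + 1), so differences of weakly expressed genes are understated. A gene was tested if it reached 1 FPKM in at least 3 of the 6 libraries, and was called changed at a Benjamini-Hochberg adjusted p below 0.05. Untreated replicate 3 stood apart. For every 10 points more GC in a transcript its log2 values were 0.38 further above the mean of untreated replicates 1 and 2, a slope that was −0.02 to 0.05 in the other 5 libraries. Its ribosomal protein mRNAs lay 0.90 higher (median, log2 scale), and its summed FPKM was 395760, against 311384 to 319701. Counts of changed genes are therefore given with all 6 libraries and again with this library left out. For single genes the difference and p without it stand first, and the 26 genes called only without it did not pass with it. Because FPKM carries no read totals the depth in reads is unknown. Depth relative to untreated replicate 1, read from the steps of the lowest values, ranged from 0.981 to 1.10. Only ratios near 1 were searched, so large differences in depth could not have been found. In the 5 libraries other than the reference 17 to 31 genes set the value. In a library 11516 to 12163 genes reached 1 FPKM.

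Few genes passed the test. With all 6 libraries 14 of 12144 genes changed (0.115%), all of them higher, and none was lower. At an unadjusted p below 0.05 there were 101 higher and 129 lower genes in that limma fit. Without untreated replicate 3, 40 genes changed (0.329%), with 26 higher (0.214%) and 14 lower (0.115%), and all of the first 14 were among them. The median standard error of a log2 difference was 0.165 with all 6 libraries and 0.070 without that library. Counted by overlap, every treated library lay above every untreated one in 6.67% of tested genes and below in 4.5%, and in 11.9% and 13.2% without untreated replicate 3. The changed genes formed a lower group led by mitochondrial tRNAs and a higher group led by liver genes. Few stress response genes were in either group, where at most 0.329% of all tested genes were called.

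The mitochondrial tRNAs that differed most lie side by side. Transcribed in opposite directions from a stretch of 377 bases between the respiratory chain genes mt-Nd2 and mt-Co1, the 5 tRNA genes for tryptophan, alanine, asparagine, cysteine and tyrosine occupy chrM:4950-5326 (GRCm38, GENCODE M21). Tryptophan tRNA is on the plus strand and the other 4 are on the minus strand. Between the asparagine and cysteine genes is a gap of 32 bases, known as the origin of light strand replication. Their sequences from the GENCODE M21 transcripts, with those of both leucine tRNAs, are given 5′ to 3′ as the tRNA strand, because they are the 7 tRNA genes that the results turn on. Capitals mark the anticodon, the triplet that reads the codon.
mt-Tw (tryptophan, chrM:4950-5016, plus strand): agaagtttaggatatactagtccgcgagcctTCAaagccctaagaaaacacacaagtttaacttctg
mt-Ta (alanine, chrM:5018-5086, minus strand): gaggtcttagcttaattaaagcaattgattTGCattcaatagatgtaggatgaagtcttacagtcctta
mt-Tn (asparagine, chrM:5089-5159, minus strand): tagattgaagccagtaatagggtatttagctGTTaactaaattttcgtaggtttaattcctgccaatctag
mt-Tc (cysteine, chrM:5192-5257, minus strand): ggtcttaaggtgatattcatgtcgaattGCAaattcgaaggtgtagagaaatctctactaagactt
mt-Ty (tyrosine, chrM:5260-5326, minus strand): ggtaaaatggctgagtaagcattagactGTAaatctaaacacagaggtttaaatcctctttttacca
mt-Tl1 (leucine, chrM:2676-2750, plus strand): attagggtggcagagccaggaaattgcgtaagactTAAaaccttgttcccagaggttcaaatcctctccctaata
mt-Tl2 (leucine, chrM:11671-11741, plus strand): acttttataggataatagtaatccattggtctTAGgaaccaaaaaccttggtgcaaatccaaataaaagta

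All 5 neighbours were lower in every treated library than in any untreated one. FPKM of mt-Tw was 8.99, 12.5 and 26.1 in untreated replicates 1, 2 and 3 and 0.940, 1.41 and 0.930 at 0.5 h, a difference of −2.48 on the log2(FPKM + 1) scale without untreated replicate 3 (SE 0.16, adjusted p = 0.00293). For mt-Ta the untreated values were 17.7, 17.6 and 40.8 and the treated ones 3.95, 3.38 and 3.00 (difference −2.07, SE 0.09, adjusted p = 0.000568). Untreated replicate 3 held more than the other 2 controls in each case, while the treated libraries lay close together. With mt-Tn the values were 17.6, 15.1 and 36.9 before and 4.33, 3.90 and 3.35 after (−1.84, SE 0.10, adjusted p = 0.00175). Those of mt-Tc were 12.03, 11.8 and 21.5 against 3.06, 3.18 and 2.95 (−1.67, SE 0.05, adjusted p = 0.000290). At the tyrosine end the gap was smaller. The mt-Ty values were 6.40, 8.10 and 8.99 against 3.83, 4.29 and 3.51 (−0.75, SE 0.11, adjusted p = 0.0957), which did not pass. With all 6 libraries none of the 5 passed, although the differences were larger: −2.89 for mt-Tw (adjusted p = 0.0735), −2.46 for mt-Ta (0.105), −2.22 for mt-Tn (0.159) and −1.94 for mt-Tc (0.0687). The mRNA neighbours overlapped between groups. Expression of mt-Nd2 was 796, 913 and 1872 FPKM untreated and 846, 814 and 712 at 0.5 h, and that of mt-Co1 was 3109, 3420 and 3763 against 3589, 3664 and 3306.

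Lower values were not shared by all mitochondrial tRNAs. Of 22 annotated, 18 were tested, and without untreated replicate 3 there were 6 lower and none higher, where 0.115% of all tested genes were lower. Their median difference was −0.40 without that library and −0.83 with it, against −0.004 and 0.058 over all tested genes. In 10 of the 18 every treated library lay below every untreated one (4.5% of all tested genes). The other 4 tRNAs, mt-Tv, mt-Td, mt-Tg and mt-Tr, were below the filter. Besides the 4 neighbours, both leucine tRNAs passed. Values of mt-Tl1, the tRNA just downstream of the 16S rRNA and the most abundant of those that fell, were 211, 248 and 201 untreated and 125, 111 and 97.9 at 0.5 h (−1.04, SE 0.11, adjusted p = 0.0312 without untreated replicate 3, 0.160 with it). For mt-Tl2 they were 5.46, 6.23 and 8.53 against 2.37, 2.74 and 2.52 (−0.95, SE 0.08, adjusted p = 0.00865 and 0.167 in the same order). The groups did not overlap for either. Threonine tRNA, mt-Tt, was at 3.60, 4.76 and 15.2 against 1.04, 0.832 and 1.62 and did not pass (−1.27, SE 0.17, adjusted p = 0.0745). The 10 tRNAs without overlap include further ones not named here, none of which passed in either fit. The rest of the tested tRNAs overlapped between groups. Phenylalanine and methionine tRNAs are examples: mt-Tf was at 5.02, 4.52 and 4.76 against 4.63, 6.15 and 2.96, and mt-Tm at 3.89, 5.68 and 3.42 against 6.15, 7.60 and 4.93. The proline tRNA mt-Tp, which is next to mt-Tt on the opposite strand, was at 23.5, 25.9 and 38.9 against 30.0, 24.1 and 29.7.

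**Figure D1:**
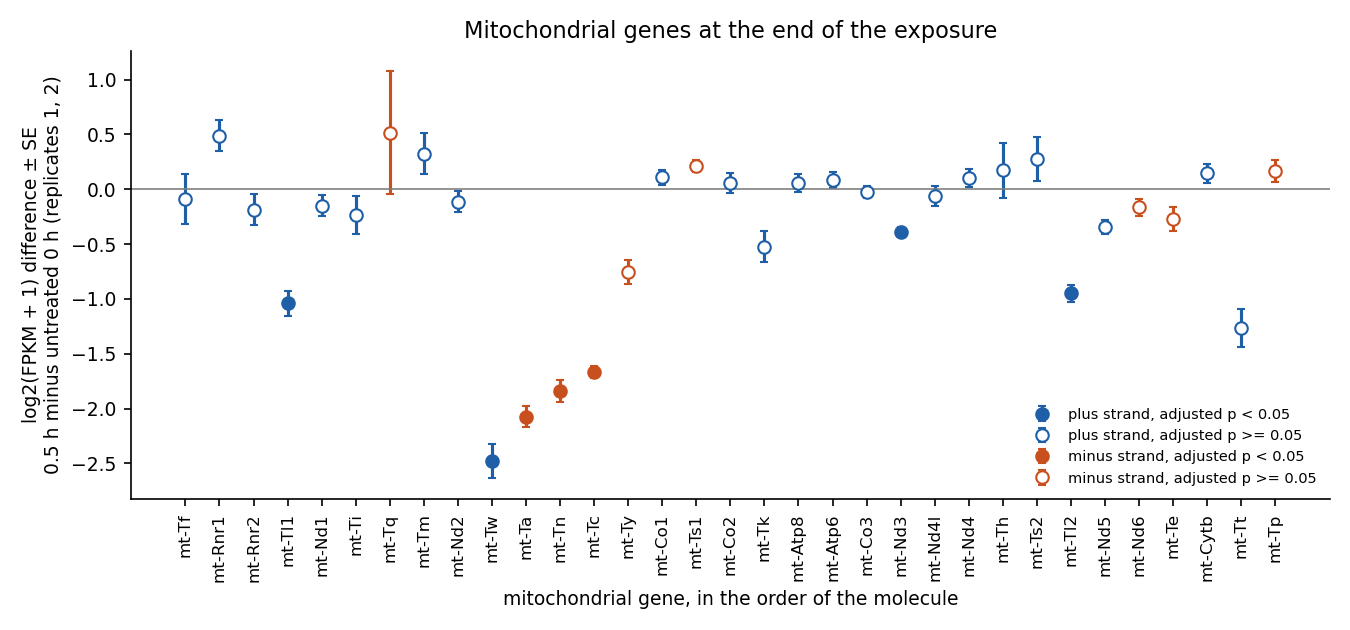
Log2(FPKM + 1) difference (0.5 h minus untreated replicates 1 and 2, with SE) of each tested mitochondrial gene in the order of the molecule; color gives the strand and filled dots passed the test. The 5 tRNA genes from mt-Tw to mt-Ty lie between −2.48 and −0.75, while mt-Nd2 and mt-Co1 on either side lie near 0.

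Among the 13 mitochondrial mRNAs only mt-Nd3, a small subunit of complex I, passed. It was at 391, 391 and 735 FPKM untreated and 288, 308 and 298 at 0.5 h (−0.39, SE 0.04, adjusted p = 0.0312 without untreated replicate 3, 0.767 with it). A nuclear pseudogene, Gm28438, was called with it, at 1.01 to 1.02 times the mt-Nd3 value in each library, so reads of the pair cannot be told apart. Complex I genes mt-Nd5 and mt-Nd6 were also lower in every treated library than in any untreated one, without passing (−0.34 and −0.17, adjusted p = 0.236 and 0.648). The rRNA gene mt-Rnr1 was at 129, 140 and 264 FPKM untreated and 175, 232 and 167 at 0.5 h. It lay above untreated replicates 1 and 2 in every treated library, without passing (0.49, SE 0.14, adjusted p = 0.490 without untreated replicate 3). Nuclear genes that make and process mitochondrial RNA, such as the polymerase, RNase P and FASTK family genes, did not pass. Of these, 0 of 34 changed in either fit, with a median of −0.018 without untreated replicate 3. Among all tested genes 0.115% changed with untreated replicate 3 and 0.329% without it, so no call among 34 says little. The libraries were made from poly(A) RNA and these tRNA genes are 59 to 75 bases long. Values therefore count fragments placed on a tRNA gene, which may belong to unprocessed or polyadenylated precursors, and give no level of mature tRNA. Whether strand was used in counting is not stated in the labels.

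The other libraries of the series place these values. For mt-Tw, mt-Ta, mt-Tn and mt-Tc the 3 libraries at 0.5 h were the lowest of all 27. Median FPKM of mt-Ta was 17.7 untreated at 0 h, 3.38 at 0.5 h, 6.82 at 2 h, 10.5 at 4 h, 21.3 at 6 h and 13.9 in untreated cells at 24 h. The leucine tRNA mt-Tl1 was lower still at 2 h, with a median of 51.5 against 111 at 0.5 h and 211 at 0 h. Set against untreated cells at 24 h in place of those at 0 h, a comparison chosen after the data were seen that uses the same treated libraries, 530 of the 12144 genes changed (4.36%). All 5 neighbours were among the 262 lower ones (2.16% of tested genes): mt-Tw at −1.98 (adjusted p = 0.00118), mt-Ta at −1.77 (0.000307), mt-Tn at −1.62 (0.000402), mt-Tc at −1.52 (0.000307) and mt-Ty at −0.81 (0.0233). With this control mt-Tl1 (−0.36, adjusted p = 0.157), mt-Tl2 (−1.87, 0.0540) and mt-Nd3 (−0.36, 0.0638) did not pass. When all 27 libraries shared 1 estimate of the spread, 10 genes changed (0.0823%), 9 of them lower (0.0741%) and 1 higher (Rsrp1, 0.00823%). Of the 9 lower ones 6 were mitochondrial tRNAs: the 4 neighbours from mt-Tw to mt-Tc, mt-Tl1 and mt-Tt. In that fit mt-Tl2 did not pass (adjusted p = 0.458).

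**Figure D2:**
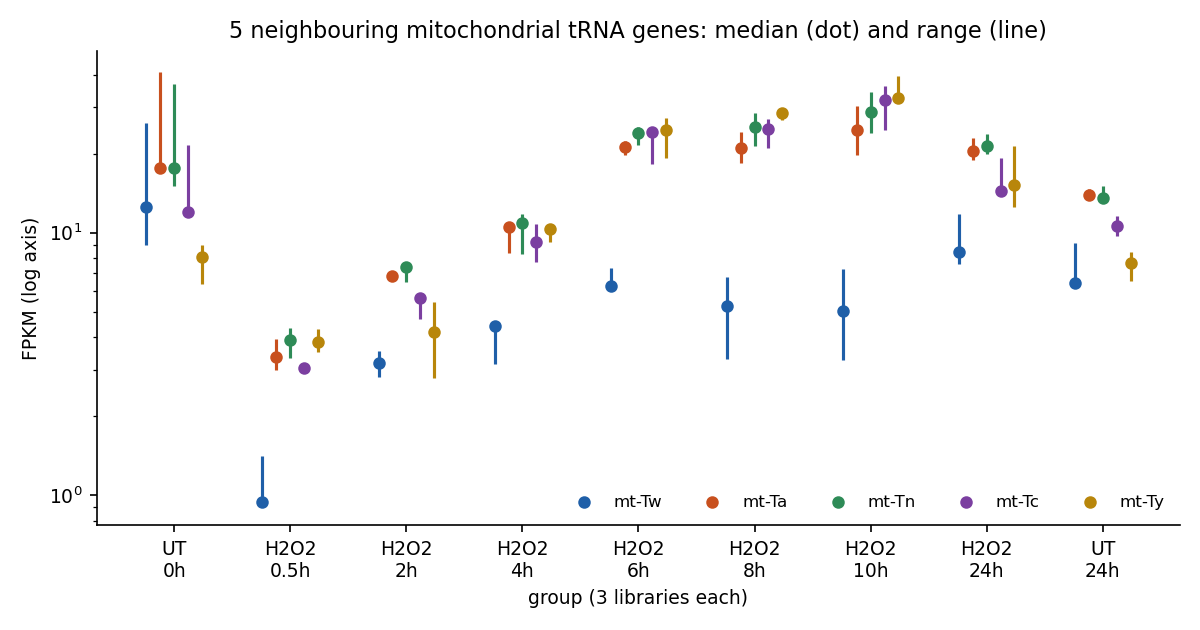
FPKM (log axis) of the 5 neighbouring tRNA genes in the 9 groups of the series, with the median of 3 libraries as a dot and their range as a line. In the 0.5 h group mt-Tw, mt-Ta, mt-Tn and mt-Tc are below every other group, and their medians are higher at 2 h and 4 h.

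Most higher genes are markers of other tissues. All 14 genes called with 6 libraries were below 1 FPKM in every untreated library and between 1.12 and 14.2 FPKM at 0.5 h. They passed the filter only through the treated libraries, so they had to differ, and their number supports nothing further. Of the 14, 8 are on a list of hepatocyte markers (Apoa1, Apoa2, Apoc3, C3, Gc, Serpina1a, Serpina1c and Ttr, all secreted plasma proteins made by the liver), 2 are astrocyte markers (Gfap, a glial intermediate filament, and Lcn2, a siderophore-binding protein) and 1 is the macrophage lysozyme Lyz2. The remaining 3 are Chil1, a chitinase-like secreted protein, Ces1c, a carboxylesterase, and Mgst1, a microsomal glutathione transferase. Apoa2, an apolipoprotein of high density lipoprotein, was at 0, 0.188 and 0.984 FPKM untreated and 9.76, 14.2 and 12.9 at 0.5 h (3.59, SE 0.16, adjusted p = 0.000568 without untreated replicate 3, 0.0237 with it). Lcn2 was at 0, 0.0206 and 0 against 2.12, 2.00 and 2.64 (1.68, SE 0.11, adjusted p = 0.00309 and 0.0189 in the same order). No treated library approached an untreated one in either gene.

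Leaving out untreated replicate 3 added Alb, Fabp1, Hamp, Hpx, Rbp4, Serpina1d and Serpina3n. Alb, the serum albumin gene, was at 0, 0.0191 and 2.32 FPKM untreated and 18.99, 28.3 and 20.2 at 0.5 h (4.52, SE 0.16, adjusted p = 0.000311 without untreated replicate 3, 0.0687 with it). Hamp, the iron hormone hepcidin, was at 0, 0 and 0.972 against 4.73, 4.89 and 5.48 (2.59, SE 0.08, adjusted p = 0.000290 and 0.0687 in the same order). In both genes untreated replicate 3 lay between the other controls and the treated libraries. Of the 26 higher genes 20 passed the filter only through the treated libraries, Hamp and the other additions except Alb among them, so they had to differ and their p-values are no support. Among the controls Alb reached 1 FPKM only in untreated replicate 3, the library left out. Without that library Alb too had to differ, and its p is no support either. In all, 16 of the 26 higher genes are on a marker list of another cell type, which leaves 10 that are not. Of those 10, 5 passed the filter only through the treated libraries.

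Levels of some markers differed between the treated and untreated libraries compared. Of 46 hepatocyte markers 39 were higher in every treated library than in any untreated one, a count over markers tested or not. Of the 20 tested 18 were, where 6.67% of all tested genes were. Of these 20, 15 passed the filter only through the treated libraries, so they had to differ. Of 10 astrocyte markers, tested or not, 5 were higher in every treated library than in any untreated one. The sum of the 10 was 9.30 to 13.2 FPKM untreated and 16.6 to 17.8 at 0.5 h. Among the 4 tested, 2 were higher in this way, Gfap and Lcn2 (6.67% of all tested genes). Both passed the filter only through the treated libraries, so they had to differ, and both are in the sum. The other tested ones overlapped: Gja1 was at 6.17 to 9.25 FPKM untreated and 8.35 to 8.86 at 0.5 h. Aldh1l1 was at 2.32 to 2.70 against 2.29 to 2.64. The 42 hepatocyte markers that were under 1 FPKM in untreated replicates 1 and 2 summed to 1.92, 2.50 and 10.5 FPKM in the untreated libraries and to 70.1, 102 and 82.5 at 0.5 h. This choice fixed low sums in those 2 controls. The hepatocyte markers outside the 42 summed to 151, 161 and 211 untreated and to 176, 168 and 174 at 0.5 h, with overlap between groups. In the other 21 libraries the sum of the 42 was 66.1 to 91.2 in 6 libraries, among them the 3 untreated ones at 24 h, and 2.12 to 3.89 in 15. Replicates of 1 group could stand far apart. In replicates 1, 2 and 3 the sum was 2.52, 3.89 and 69.5 at 6 h after peroxide, and 91.2, 81.2 and 3.01 at 8 h. Lcn2 reached 1 FPKM in 14 of these 21 libraries, including all 6 with the high sum. Against untreated cells at 24 h, where 2.21% of tested genes were higher, none of the 26 was called: 0.15 for Alb (adjusted p = 0.580), 0.13 for Apoa2 (0.536) and −0.07 for Lcn2 (0.669). Summed levels of markers of neurons (157 to 197 FPKM over the 6 libraries), fibroblasts or feeder cells (94.3 to 128), oligodendrocytes (6.92 to 7.40), endothelium (23.1 to 24.8) and kidney (5.87 to 6.50) overlapped between groups. So did those of muscle (4.80 to 12.2), erythroid cells (0.563 to 2.72) and pancreas and gut (0.749 to 1.96). The sum of the 10 embryonic stem cell markers was 3516, 3492 and 4484 FPKM untreated and 2987, 3234 and 3440 at 0.5 h, below the controls in every treated library. Its largest member, Dppa5a, overlapped between groups, at 1478, 1425 and 2234 against 1046, 1245 and 1437. Of the 10 markers 2 were lower in every treated library than in any untreated one (4.5% of all tested genes). None was called in either fit, and their median difference was −0.04 without untreated replicate 3. Of 14 macrophage and blood markers, tested or not, 2 were higher in every treated library than in any untreated one. Among the 3 tested this held for 1, Lyz2 (6.67% of all tested genes), which passed the filter only through the treated libraries. In RNA of whole cultures, more cells of a type and more RNA per cell cannot be told apart, and what part RNA of other tissues has in these differences was not tested.

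**Figure D3:**
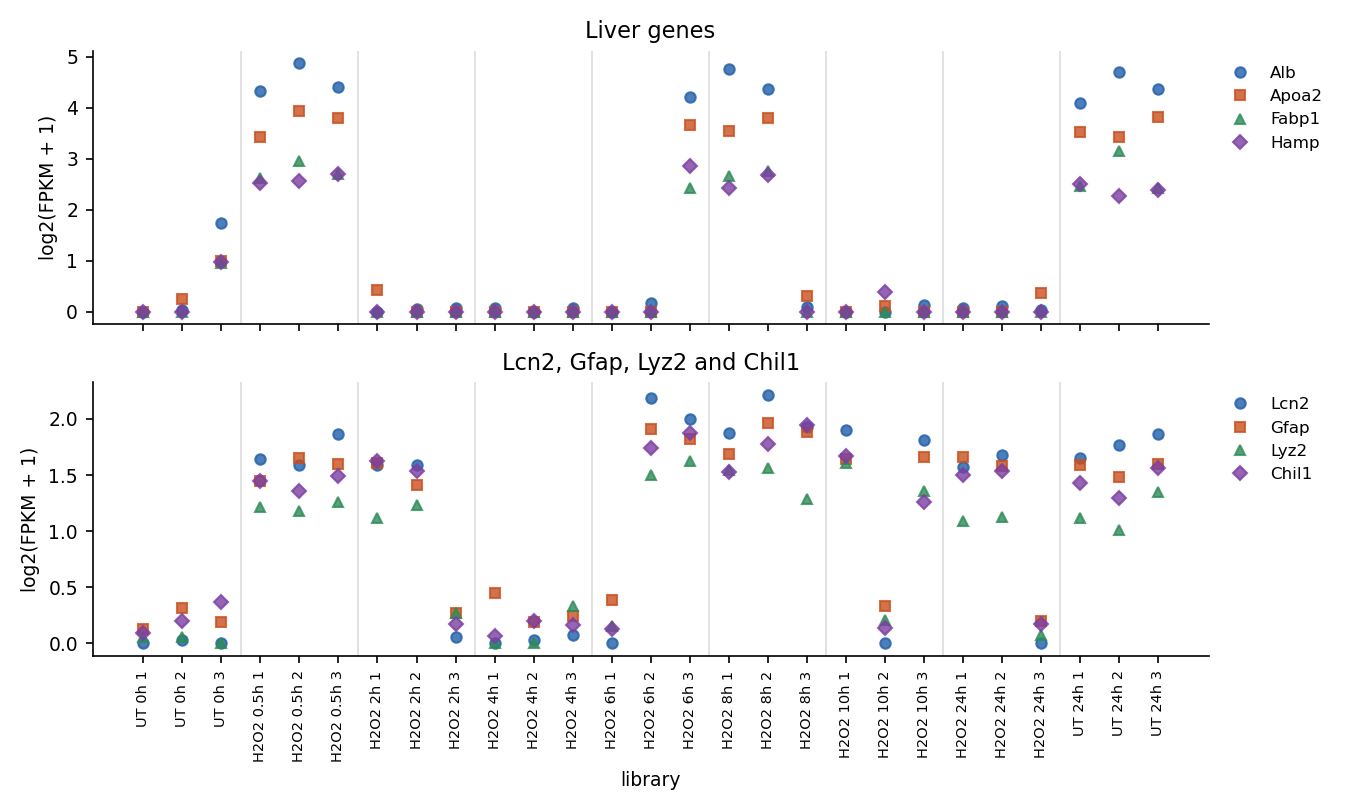
Log2(FPKM + 1) of 4 liver genes (top) and of Lcn2, Gfap, Lyz2 and Chil1 (bottom) in each of the 27 libraries, with lines between groups. Liver genes are high in the 3 libraries at 0.5 h and in 6 others, while the lower 4 genes are high in more libraries, and none is high in untreated replicates 1 and 2 at 0 h.

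Among genes that the cells do use, 3 with a usual symbol rose when untreated replicate 3 was left out. Gadd45b, a stress-induced partner of p38 kinase signaling and DNA demethylation, was at 12.4, 12.3 and 20.5 FPKM untreated and 20.04, 18.5 and 20.1 at 0.5 h (0.62, SE 0.05, adjusted p = 0.00865). B2m, the light chain of class I histocompatibility proteins, was at 13.5, 14.01 and 20.9 against 22.02, 19.6 and 19.98 (0.55, SE 0.06, adjusted p = 0.0312). Untreated replicate 3 was as high as the treated libraries in both, and with it neither passed (adjusted p = 0.767 for each). Zfp866, a zinc finger gene, was at 4.19, 4.12 and 1.31 against 6.05, 5.99 and 5.96 (0.44, SE 0.05, adjusted p = 0.0335 without untreated replicate 3, 0.767 with it). Predicted genes Gm6563 (0.49) and Gm26920 (1.52) completed the higher group. Gm26920 was at 0, 0 and 2.09 FPKM untreated and 1.30, 1.98 and 2.41 at 0.5 h. Untreated replicate 3 lay within the treated range, and without it Gm26920 had to differ, so its call is no support. With all 6 libraries neither predicted gene passed (adjusted p = 0.767 for each). Against untreated cells at 24 h none of these 5 passed: Gadd45b was at 0.22 (adjusted p = 0.119), B2m at 0.08 (0.489), Zfp866 at 0.22 (0.134), Gm26920 at 0.53 (0.403) and Gm6563, with the opposite sign, at −0.21 (0.352).

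Lower genes of the nucleus included Id3 and the long noncoding RNAs Snhg1 and Snhg15. Id3, an inhibitor of basic helix-loop-helix factors and a target of BMP signaling, was at 22.8, 24.7 and 44.4 FPKM untreated and 16.9, 16.7 and 17.5 at 0.5 h (−0.46, SE 0.05, adjusted p = 0.0330 without untreated replicate 3, 0.767 with it). Against untreated cells at 24 h Id3 was at −0.05 (adjusted p = 0.818), and in the fit of all 27 libraries it did not pass (adjusted p = 0.331). Its relative Id1 overlapped, at 25.5, 22.2 and 41.0 against 28.4, 26.2 and 27.4. Smad7, which inhibits TGF-beta and BMP receptors, was at 13.7, 15.99 and 13.3 against 10.2, 10.4 and 10.3. The groups of Smad7 did not overlap, yet it passed in neither fit (−0.49, SE 0.07, adjusted p = 0.0854, and 0.767 with all 6). It did pass against untreated cells at 24 h (−0.41, adjusted p = 0.0314) and in the fit of all 27 libraries (−0.44, 0.00975). Of 31 tested Nodal, TGF-beta and BMP genes Id3 alone changed (0.329% of all tested genes), with a list median of −0.048 without untreated replicate 3. Of 34 tested short-lived regulatory mRNAs Id3 again was the only one called (0.329%), and 13 lay below both remaining controls in every treated library (13.2% of all tested genes). With all 6 libraries 5 of the 34 lay below every control in every treated library (4.5% of all tested genes).

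Snhg1 and Snhg15 are host genes, transcripts whose introns hold small nucleolar RNAs and whose spliced form is quickly degraded. Snhg15 was at 13.2, 12.7 and 21.4 FPKM untreated and 7.96, 7.61 and 7.84 at 0.5 h, the lowest 3 of the 27 libraries (−0.66, SE 0.05, adjusted p = 0.00540 without untreated replicate 3, 0.767 with it). Snhg1 was at 42.2, 45.9 and 50.3 against 32.0, 30.6 and 31.2 (−0.48, SE 0.05, adjusted p = 0.0249, and 0.504 with it). In neither gene did the groups overlap. Of 22 tested host genes these 2 were lower without untreated replicate 3 (0.115% of all tested genes) and none was higher. The list median was −0.19 without untreated replicate 3 and −0.16 with it, against −0.004 and 0.058 over all genes. Every treated library lay below every untreated one in 6 of the 22 with all 6 libraries (4.5% of all tested genes), and in 9 without untreated replicate 3 (13.2%). Against untreated cells at 24 h Snhg15 was lower (−0.43, adjusted p = 0.0414) and Snhg1 was not called (−0.04, 0.629).

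Lower genes of the nucleus that remain are Rps27rt, Defa30 and Gm49432. Rps27rt, a retrotransposed copy of the ribosomal protein gene Rps27, was at 262, 244 and 217 FPKM untreated and 123, 147 and 144 at 0.5 h (−0.88, SE 0.08, adjusted p = 0.0154 without untreated replicate 3, 0.226 with it), and in the other 21 libraries it ranged from 119 to 265. Defa30, of the alpha-defensin family, was at 1.24, 1.18 and 2.65 untreated and is listed at 0 in all treated libraries, as in the 3 untreated ones at 24 h. Gm49432, a predicted noncoding RNA, was at 1.68, 1.55 and 2.25 against 0.458, 0.586 and 0.573 (−0.76, SE 0.09, adjusted p = 0.0359 and 0.159 in the same order). Defa30 and Gm49432 passed the filter only through the untreated libraries, so they had to differ. Rps27rt and Defa30 have near-identical copies, and how their reads were assigned was not tested.

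Stress response genes gave few calls, as did all tested genes (0.115% with 6 libraries, 0.329% with 5). Few calls in a short list therefore say little about its genes. In a panel of 44 stress, feedback and pluripotency genes, 43 were tested, and 40 of those lay within 0.3 of zero on the log2 scale without untreated replicate 3. Snhg1 was the only one called (0.329% of all tested genes). Among targets of NRF2, the master factor of the antioxidant response, 1 of 29 changed (0.115% of all tested genes with 6 libraries, 0.329% with 5), Mgst1, one of the genes described above as below 1 FPKM in untreated cells. Hmox1, heme oxygenase, was at 88.7, 87.6 and 90.9 FPKM untreated and 96.5, 87.4 and 85.8 at 0.5 h (0.03, SE 0.06). Srxn1, which repairs overoxidized peroxiredoxins, was at 14.6, 14.9 and 12.2 against 12.9, 13.99 and 14.3 (−0.10, SE 0.06). Treated and untreated values of both genes overlapped. None of 28 antioxidant enzymes passed in either fit, Prdx1 among them at 304, 306 and 421 against 279, 292 and 318.

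Immediate early genes, which growth factors and stress kinases switch on within minutes, gave 1 call in 21 tested, Gadd45b, without untreated replicate 3 (0.329% of all tested genes). Fos was at 1.06, 1.17 and 0.574 FPKM untreated and 1.10, 0.911 and 1.06 at 0.5 h (−0.06, SE 0.09), and Jun at 2.13, 2.48 and 1.64 against 2.38, 1.99 and 1.84 (−0.11, SE 0.10). Egr1 was below the filter, at 0.0472 to 0.384 over the 6 libraries. Kinase phosphatases and Sprouty genes, which damp that signal, gave no call in 15 tested. Dusp1 was at 5.84, 5.36 and 5.78 against 4.88, 4.85 and 4.61, with no overlap between groups (−0.19, SE 0.06, adjusted p = 0.553). Atf3, a stress-induced repressor, was at 2.61, 3.06 and 2.53 against 2.06, 2.48 and 1.86 (−0.29, SE 0.11, adjusted p = 0.600). Both were lower in every treated library, without passing.

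None of 34 p53 targets, 28 genes of ATF4 and the integrated stress response or 27 cytosolic chaperones passed in either fit. Nor did any of 23 endoplasmic reticulum chaperones or 15 metallothioneins and zinc genes. With untreated replicate 3, 0.115% of all tested genes passed, and 0.329% without it, so no call in lists this short says little. Cdkn1a, the p21 cell cycle inhibitor, was at 26.4, 26.3 and 31.9 FPKM untreated and 25.1, 25.7 and 24.0 at 0.5 h (−0.08, SE 0.04). Mdm2, the ubiquitin ligase for p53, was at 40.1, 41.1 and 23.4 against 38.1, 38.9 and 36.9 (−0.09, SE 0.04). Atf4 was at 82.7, 81.1 and 100.3 against 88.7, 91.1 and 89.1 (0.13, SE 0.04). Hspa1b, the inducible 70-kilodalton chaperone, was at 2.87, 2.64 and 2.82 against 3.81, 3.02 and 3.25, above the controls in every treated library but not called (0.21, SE 0.09, adjusted p = 0.644). Txnip, which binds thioredoxin and limits glucose uptake, was at 68.6, 63.4 and 48.0 against 52.4, 54.9 and 57.5 (−0.26, SE 0.06, adjusted p = 0.345). Rsrp1, an arginine- and serine-rich protein of splicing, was at 27.9, 31.9 and 23.9 against 42.6, 39.0 and 37.4, with no overlap between groups (0.40, SE 0.08, adjusted p = 0.238). It passed only in the fit of all 27 libraries (0.50, adjusted p = 0.0400).

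**Figure D4:**
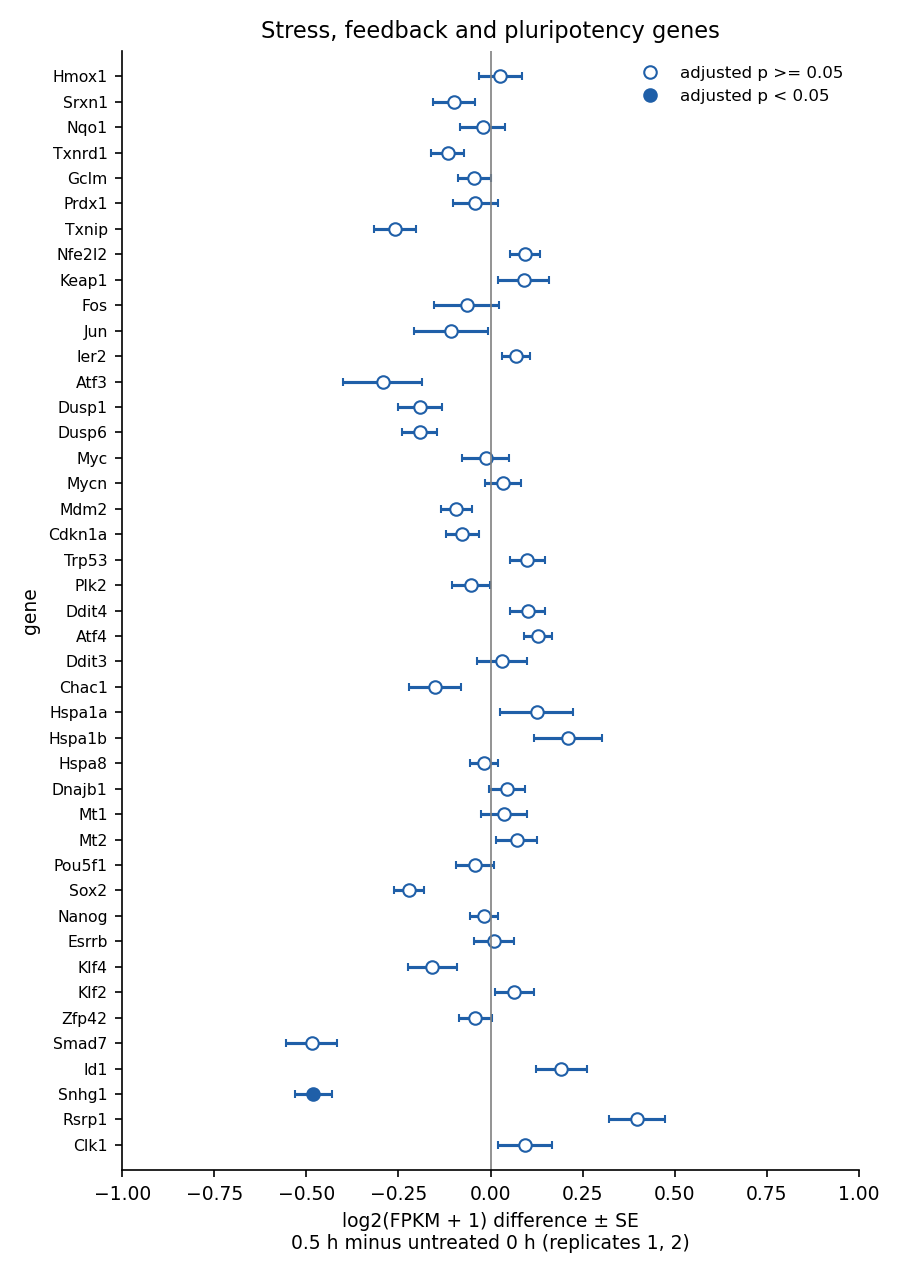
Log2(FPKM + 1) difference with SE (0.5 h minus untreated replicates 1 and 2) of the 43 tested panel genes, from oxidant and early response genes at the top to pluripotency and splicing genes at the bottom. Most lie within 0.3 of 0, Smad7 and Snhg1 are the lowest near −0.49, and only Snhg1 passed the test.

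Genes of the stem cell state gave no call. None of 19 core pluripotency factors and none of 24 naive state regulators changed in either fit. Of all tested genes 0.115% changed with untreated replicate 3 and 0.329% without it, so no call in such short lists says little. Pou5f1 was at 586, 616 and 938 FPKM untreated and 558, 589 and 605 at 0.5 h (−0.04, SE 0.05), and Nanog at 371, 366 and 296 against 359, 365 and 368 (−0.02, SE 0.04). Sox2, their partner, was at 138, 137 and 121 against 120.4, 119 and 114, below the controls in every treated library (−0.22, SE 0.04, adjusted p = 0.216). With all 6 libraries 2 of the 24 naive regulators lay below every control in every treated library (4.5% of all tested genes). The list median was then 0.031. Without untreated replicate 3, 11 of the 24 naive regulators lay below both controls in every treated library, where 13.2% of all tested genes did, with a list median of −0.058. Among them Klf4 was at 50.7 and 48.2 in those controls and at 47.2, 44.7 and 41.0 at 0.5 h (−0.16, SE 0.07, adjusted p = 0.627). Primed state genes (13 tested), primitive endoderm genes (9) and genes of the 2-cell-like state (17) had no member called, the last with a median of −0.21 without untreated replicate 3 and −0.04 with it.

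Untreated replicate 3 set the medians of several large lists. Cytosolic ribosomal proteins (82 tested, none called) had a median of −0.38 with all 6 libraries and −0.07 without that library. Nuclear subunits of the respiratory chain (51 tested, none called) went from −0.30 to −0.02. Histone and DNA methylation enzymes (49 tested, none called) went from 0.26 to 0.006, and SR, hnRNP and splicing kinase genes (45 tested) from 0.18 to 0.01. Of 43 lists with at least 5 tested members, 25 had a median within 0.1 of zero with all 6 libraries and 39 without it. Even so, 28 of the 82 ribosomal protein genes were lower in every treated library than in any untreated one in both fits, where 4.5% and 13.2% of all tested genes were. Rpl17, a protein of the large ribosomal subunit, was among them. It was at 192, 247 and 313 FPKM untreated and 141, 93.0 and 85.3 at 0.5 h, with no overlap between groups (−1.06, SE 0.22, adjusted p = 0.307).

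**Figure D5:**
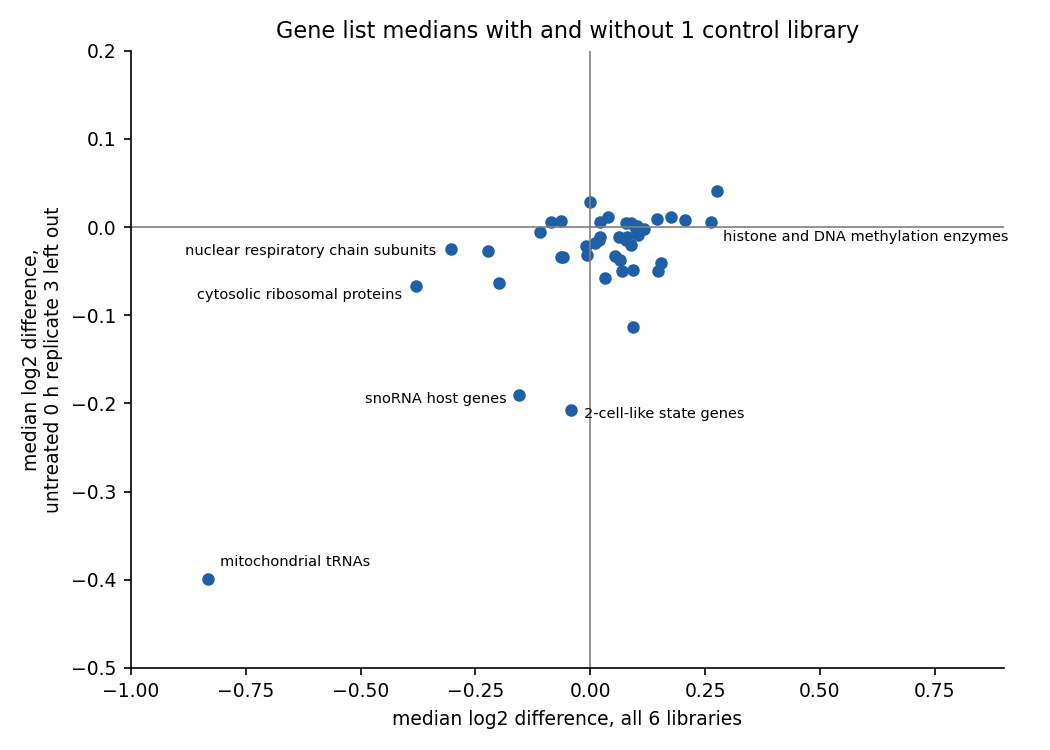
Median log2(FPKM + 1) difference (0.5 h minus untreated 0 h) of 43 gene lists with all 6 libraries (x axis) and without untreated replicate 3 (y axis), 1 dot a list. Ribosomal protein, respiratory chain and methylation enzyme lists move to near 0 on the y axis, while mitochondrial tRNAs remain at −0.40 and snoRNA host genes at −0.19.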

How the data were processed

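Total RNA was selected for poly(A), and stranded libraries were sequenced in pairs, per the labels' protocols. Per the submitters' processing notes, cutadapt, FastQC, HISAT2, StringTie and edgeR were used with mm10; no source read here gives their versions or the annotation. The authors' deposited values are FPKM per gene for 38352 genes, with their own fold ratio, log2 fold change, p-value and q-value for this comparison, which are not printed. Here log2(FPKM + 1) was tested with limma 3.58.1 in R 4.3.3 (mean-variance trend, 1 mean per group, no covariate), first with 6 and then with 5 libraries, on the same 12144 genes. The limma scripts were tested on simulated data. Positions, GC content and sequences came from GENCODE M21 (GRCm38). The genes and lists, and untreated replicate 3 as the library to leave out, were chosen with earlier results of these data known.

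Genes are named by a rule: in each fit the 15 largest rises and falls among changed genes with a usual symbol; the 10 largest rises and falls at a mean of 5 FPKM or more without overlap; up to 4 changed members of a list, or its 3 most abundant; mitochondrial tRNAs above 1 FPKM; and the panel of 44 genes. Rbp4, Serpina3n, Gm28438, Gm6563, Gm26920, Gm49432, mt-Nd5 and mt-Nd6 fall outside it and were chosen after their values were seen. Not every gene that the rule selects is described: Zfp977, Zfp640, Zfp146, Fdx2, Snord65, mt-Ti and mt-Tq are examples of those left out. Alternatives were another pseudocount (0.1), no filter or one of 5 FPKM, median-of-ratios scaling, no trend, all libraries in 1 fit, array weights, a GC and length correction (splines with 4 degrees of freedom), a replicate block, a 2-fold minimum and each library left out. Added after seeing the data was untreated 24 h as control. Intervals of counting error cannot be given without read counts.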

Additional observations from a re-analysis of the deposited data

How the results depend on the processing

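Counts were fragile. With all 6 libraries the count of 14 became 4 with a pseudocount of 0.1, 30 without a filter, 0 at a filter of 5 FPKM (79 at an unadjusted p below 0.05 in limma), 1088 with array weights (490 higher, 598 lower) and 530 against untreated cells at 24 h (268 and 262). It was 12 after median-of-ratios scaling, 20 after the GC and length correction, and 10 in the fit of all 27 libraries, where none of the 14 was among the 10. Leaving out 1 library gave 0 to 40: 0 for each of the 5 libraries other than untreated replicate 3 (123 to 385 at an unadjusted p below 0.05) and 40 without that one. Without untreated replicate 3 the count of 40 became 5 with no filter, 18 at 5 FPKM and 7 (all lower) with all other libraries of the series in 1 fit, and 11 to 42 with 1 more library left out. The 11 came without untreated replicate 1, which leaves a lone control assumed to vary like the other group. Over the 15 alternatives of that fit mt-Tc was called in 15 and mt-Tw, mt-Ta and mt-Tn in 14 each, the exception being no filter (adjusted p = 0.0953, 0.0553 and 0.0746), while Gadd45b was called in 9, Snhg15 in 10, Snhg1 in 6, Id3 in 5, B2m in 5 and mt-Nd3 in 3.

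Deviations of same-numbered libraries from their group means correlated at 0.078, −0.072 and 0.044. Because the untreated mean includes untreated replicate 3, these values cannot tell whether replicate numbers pair the samples, and the labels do not say. With a replicate block the counts were 0 with all 6 libraries (317 at an unadjusted p below 0.05 in limma) and 13 without untreated replicate 3, and with the block and median-of-ratios scaling 0 (309) and 23. With all 6 libraries the sign turned with array weights for Id1 (0.25) and Dusp6 (−0.22), and against untreated cells at 24 h for Lcn2 (−0.066), Apoa1 (−0.0017), Ces1c (−0.0297), Apoc3 (−0.11) and Nqo1 (0.42). Of the 26 genes higher without untreated replicate 3, 20 stayed above 0 against that control; besides Lcn2, Apoa1, Ces1c and Apoc3, Serpina3n (−0.0071) and Gm6563 (−0.21) turned. The cause was not tested.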

Other observations

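Some expressed genes outside the lists also stood apart without passing. Srcap, the ATPase of a complex that places the histone variant H2A.Z, was at 1.68, 1.03 and 0.180 FPKM untreated and 8.24, 5.01 and 3.88 at 0.5 h (1.47, SE 0.27, adjusted p = 0.216 without untreated replicate 3 in limma). Zfp296, a zinc finger gene of pluripotent cells, was at 19.6, 21.8 and 37.4 against 30.6, 26.9 and 29.0 (0.46, SE 0.07, adjusted p = 0.119), so that untreated replicate 3 was the highest of the 6. Snora31, a small nucleolar RNA of the H/ACA class, was at 9.55, 9.69 and 15.5 against 4.38, 4.53 and 2.85 (−1.13, SE 0.16, adjusted p = 0.0810), with no overlap between groups. Nlrp12, an inflammasome family gene, was lower in the fit of all 27 libraries (−0.77, SE 0.11, adjusted p = 0.00309) but not without untreated replicate 3 (−0.76, adjusted p = 0.113); it was chosen after its values were seen.

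The authors' deposited table marks 139 genes as higher and 20 as lower for this comparison, over all 38352 genes. Of the 12144 genes tested here the authors' deposited table marks 11 as higher and 12 as lower, and 13 of the 40 genes changed in limma carry a mark in the authors' deposited table.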
